A study of Mus musculus with 4 samples.

Results

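The genes described here are 39 nuclear receptors of the mouse, all those of a fixed list of the family that leaves out Pparg, the master regulator of fat cell formation. A gene entered by its name on the array and not by a threshold on its values, and the 39 were set against 22292 genes of the array that matched a RefSeq gene. They were measured by 66 probes on 95 spots. RNA came from adult mouse cardiac mesenchymal progenitors (CMPs), cells of C57BL/6 hearts that carry the surface protein Sca-1. The untreated control was labelled day 0. The other groups were OSKM-CMPs, the same kind of cells given Sendai virus vectors for Oct4, Sox2, Klf4 and c-Myc, at day 4, day 6 and day 8. By the study's methods these cells were kept in a reprogramming medium without leukemia inhibitory factor. Each of the 4 conditions was read on 1 array, without a replicate. No test between conditions could be made and no p-value is given. Control cells were sampled at 1 time point, so the factors, the virus, the medium and time in culture cannot be told apart.

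Nuclear receptors are transcription factors that bind DNA through zinc fingers, and most are switched by a small lipid-soluble ligand such as a steroid, retinoic acid, thyroid hormone, an oxysterol or a bile acid. Many bind as a dimer with a retinoid X receptor, and without ligand several hold corepressors on their target genes. In fat cell formation, family members act beside Pparg as sensors of fatty acids and sterols, as relays of glucocorticoid and thyroid hormone, and as a link to the circadian clock. The hexamer AGGTCA is the core of the DNA element that many of them share.

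Promoters of 4 members are shown because these genes had some of the largest or most regular changes across the arrays, and because their windows hold between them the 3 motifs searched. The motifs were the hexamer AGGTCA, the Myc-type E-box CACGTG and the Klf4-type motif GGGNGTG, each read on both strands and counted on its own, with overlaps allowed. Each sequence is the 250 bases before a RefSeq transcript start in GRCm38.p6, written in the direction of the gene, with the motif in capitals and its first base counted from the start at 0. The capitals mark an AGGTCA hexamer on the opposite strand at position -214 for Nr1h4 (chr10:89506659-89506908, minus strand). They mark a Klf4-type motif at -45 for Nr1h3 (chr2:91195036-91195285, minus strand) and at -96 for the first start of Esrrg (chr1:187608756-187609005, plus strand). For Thrb they mark the hexamer at -184 of one start (chr14:17660710-17660959, plus strand) and the E-box at -193 of another (chr14:17981394-17981643, plus strand).
Nr1h4: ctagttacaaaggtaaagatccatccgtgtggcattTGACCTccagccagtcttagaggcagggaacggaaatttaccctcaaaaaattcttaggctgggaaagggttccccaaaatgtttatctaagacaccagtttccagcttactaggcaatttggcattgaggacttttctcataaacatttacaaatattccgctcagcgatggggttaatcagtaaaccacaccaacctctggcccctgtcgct
Nr1h3: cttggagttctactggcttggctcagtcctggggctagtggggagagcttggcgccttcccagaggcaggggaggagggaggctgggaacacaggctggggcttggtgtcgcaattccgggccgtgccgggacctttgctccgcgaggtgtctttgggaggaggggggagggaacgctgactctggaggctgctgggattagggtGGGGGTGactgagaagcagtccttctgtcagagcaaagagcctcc
Thrb, first start: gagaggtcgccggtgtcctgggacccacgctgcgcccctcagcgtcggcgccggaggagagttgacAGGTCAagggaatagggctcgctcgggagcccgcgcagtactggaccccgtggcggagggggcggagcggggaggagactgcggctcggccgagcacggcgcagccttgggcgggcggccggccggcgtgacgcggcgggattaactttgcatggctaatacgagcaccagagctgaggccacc
Thrb, other start: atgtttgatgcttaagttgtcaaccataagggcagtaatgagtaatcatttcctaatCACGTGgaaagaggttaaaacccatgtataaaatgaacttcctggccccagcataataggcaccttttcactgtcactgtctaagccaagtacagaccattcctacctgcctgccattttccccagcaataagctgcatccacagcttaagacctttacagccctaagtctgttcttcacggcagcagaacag
Esrrg, first start: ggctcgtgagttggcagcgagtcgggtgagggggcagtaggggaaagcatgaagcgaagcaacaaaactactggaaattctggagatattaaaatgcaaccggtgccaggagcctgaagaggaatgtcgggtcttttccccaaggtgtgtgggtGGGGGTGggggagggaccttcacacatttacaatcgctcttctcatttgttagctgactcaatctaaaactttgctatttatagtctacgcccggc

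Across the family, promoter windows were found for 37 members, with 54 windows of 300 bases, from 250 before to 50 after the start. The Klf4-type motif was in the windows of 21 members (56.8%), against 31.9% of 27025 genes with a window. Member windows also held more G and C, with a median of 59.3% against 52.7% over 32851 windows, and the part of base composition in the motif share was not tested. The motif was in 6 of 12 members whose RNA changed at least 2-fold on any day and in 15 of the other 25. The E-box was in 5 members (13.5%, against 8.09% of all genes) and the AGGTCA hexamer in 10 (27%, against 18.1%). A share by gene rises with the number of windows a gene has. By window, the hexamer was in 18.5% of member windows against 16.3% of all windows. The E-box was in 11.1% against 7.15%, and the Klf4-type motif in 53.7% against 29.2%. All 4 windows of Esrrg held the Klf4-type motif. The window of Nr1d1 and that of Rora held none of the 3. A match is a run of letters and was not shown to be bound.

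Values below are scaled signals, the background-subtracted Cy3 signal as a percent of the 75th percentile of the array, so that a signal of 100 equals that percentile. Changes are log2 differences from the control array, given ± an error. It combines the 1 SD estimated for each spot by the image software (Feature Extraction) over the spots, any probes averaged and both arrays. Spots and probes are taken as independent. The error holds neither the gap between probes of a gene nor any variation between cultures or RNA extracts. A change of at least 2-fold, 1 on the log2 scale, is counted as higher or lower. Signals of different probes cannot be ranked against each other. In RNA from whole cultures, fewer cells of a type and less RNA per cell cannot be told apart.

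RNA of 34 of the 39 members (87.2%) was well above background on at least 1 array, against 74.9% of all genes, and that of 31 (79.5%, against 65.4%) on all 4 arrays. The number detected was 32 in the control and 33, 32 and 34 on days 4, 6 and 8. The 5 members detected on no array were Nr0b1 and Nr0b2, atypical receptors that lack a DNA-binding domain, Nr1i2, the xenobiotic sensor of liver and gut, Nr4a3, an immediate-early orphan receptor, and Nr5a2, a receptor of early embryo, liver and gonad. Esrrg was detected on all arrays but the control, Nr3c2 on all but day 6, and Pgr at day 8 alone.

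At day 4, 4 of 33 members compared were higher (Thrb, Rorb, Esrrg and Nr4a2) and 4 were lower (Nr1h4, Nr1d1, Rora and Nr4a1). Of all 16243 genes compared, 11.8% were higher and 9.72% lower. At day 6 the same 4 members were higher, against 12.7% of all genes, and Nr1h4 and Rora were lower, against 11.7%. At day 8, 6 of 34 were higher (Nr1h3, Thrb, Rorb, Esr1, Esrrg and Pgr, against 14.3% of all genes) and 3 were lower (Nr1h4, Nr1d1 and Nr2f1, against 11.7%). The shares of the members lay near those of all genes. Their median change was -0.02, 0.13 and 0.19 on days 4, 6 and 8, beside -0.02, -0.04 and -0.04 over all genes. In all, 12 members changed at least 2-fold on some day, 4 of them in the same direction on all 3 days, and 22 stayed under 2-fold on every day. The same counts over the 3 days together were not made for all genes. Whether 12, 4 or 22 is many or few for this array therefore cannot be said. With the array median as the scale, 5 members were higher and 5 lower at day 8, and the split of all genes went from 14.3% higher and 11.7% lower to 11.2% and 17%. The median over all genes was then -0.30 and that of the members -0.08.

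**Figure D1:**
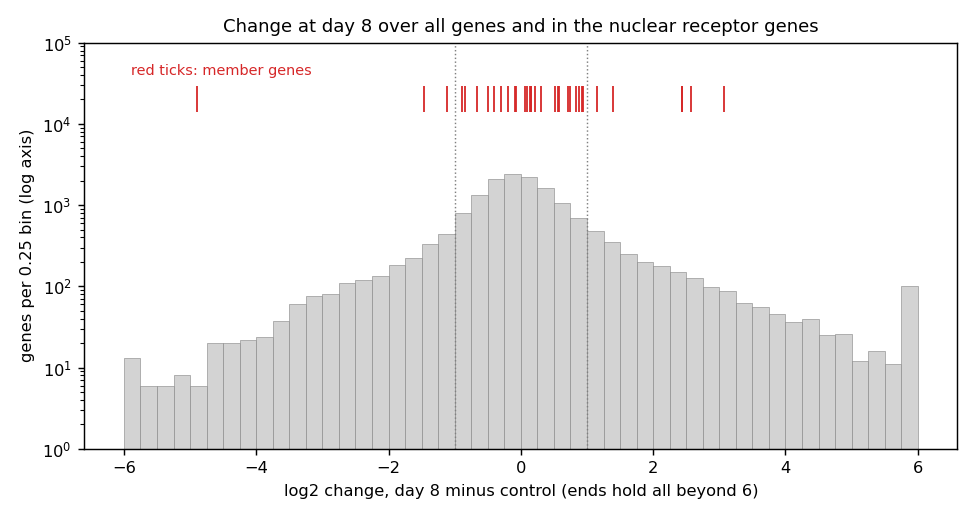
Number of genes (log axis) in bins of 0.25 by log2 change between the control and day 8 arrays, with the end bins holding all values beyond 6. Each red tick is 1 of the 34 member genes compared, and the dotted lines mark 2-fold. Most members lie between the lines, with Nr1h4 alone at -4.90 and Thrb and Rorb above 2. The control signal of Rorb, 4.43, was well above background but near the limit of detection. The ticks of Esrrg and Pgr, also above 2, are differences from a control signal not well above background, and for these genes a rise of at least 2.35-fold and 2.14-fold is all that was measured.

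**Figure D2:**
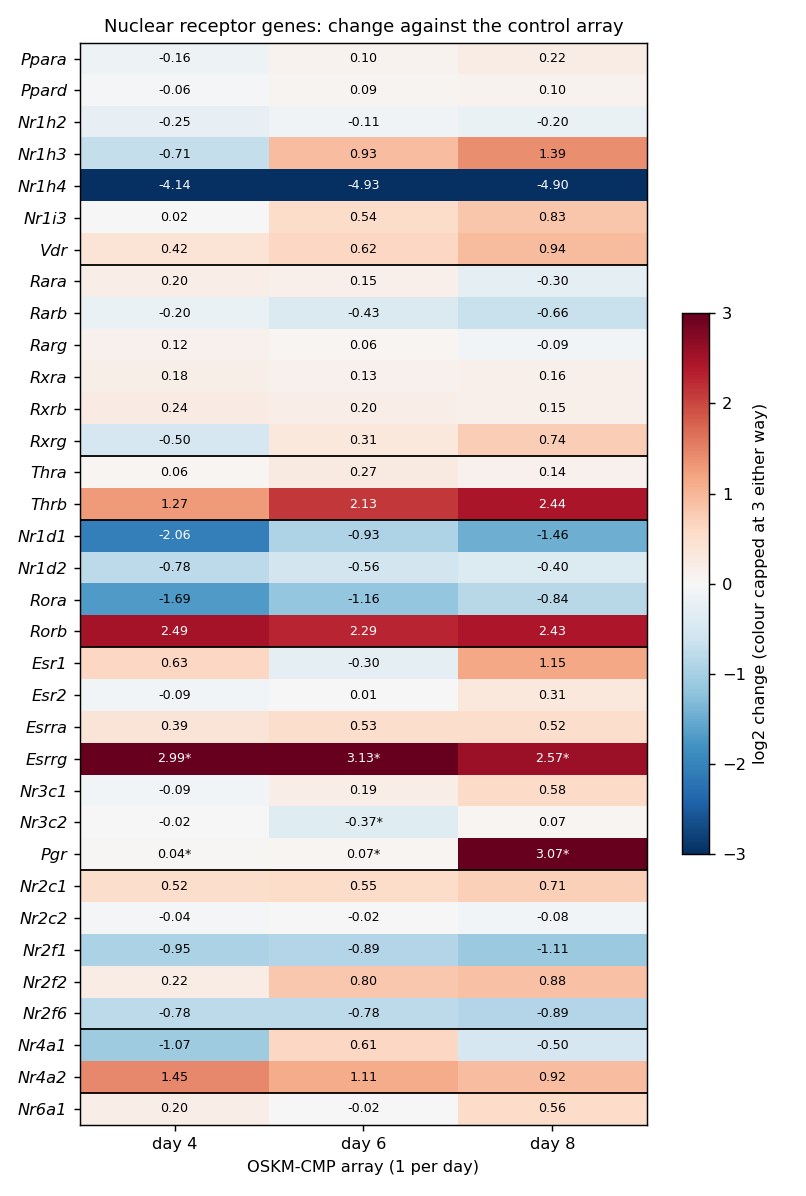
Log2 change of each detected member from the control array at day 4, day 6 and day 8, with 1 array per day, in groups by role divided by black lines. An asterisk marks a change in which the gene was not well above background on one or both arrays compared. The strongest blue row is Nr1h4, and Thrb and Rorb are red on all 3 days. Rorb is set against a control signal near the limit of detection. The red cells of Esrrg and Pgr carry asterisks, and their depth of colour cannot be ranked.

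Among the lipid and xenobiotic sensors, Nr1h4 had the largest fall of the family. It encodes the bile acid receptor, which represses bile acid synthesis in liver. Its probe (chromosome 10 of mm9, 88917222 to 88917281) gave a scaled signal of 433 in the control and 24.5, 14.2 and 14.5 on days 4, 6 and 8. The control stood far above the 3 OSKM-CMP arrays, which lay within 1.73-fold of each other. The change was -4.14 ± 0.21, -4.93 ± 0.22 and -4.90 ± 0.21 on days 4, 6 and 8, which is 29.8-fold lower at day 8. With normexp background correction and quantile normalization the change at day 8 was -3.87. All 4 signals were well above background. The gene has no other probe, so no second measurement of it exists on these arrays.

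Nr1h3, the liver X receptor alpha, senses oxysterols and drives genes of sterol efflux and fatty acid synthesis. One probe read 143 in the control and 95.4, 294 and 399 on days 4, 6 and 8. The other read 249.4, 140, 440.5 and 609.5 in the same order. On both probes day 4 was the lowest array and day 8 the highest. The gene changed by -0.71 ± 0.14, 0.93 ± 0.14 and 1.39 ± 0.14 on days 4, 6 and 8, and rose 4.27-fold between day 4 and day 8. Its close relative Nr1h2, the widely expressed liver X receptor beta, read 2447, 2058, 2270 and 2126 and was within 0.25 of the control on all 3 days.

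The other sensors changed less. Vdr, the vitamin D receptor, read 51.0, 68.3, 78.6 and 97.9, in the order of the days, and was 0.94 ± 0.21 higher at day 8, the largest change of the 22 members under 2-fold. Nr1i3, the constitutive androstane receptor, was 0.83 ± 0.24 higher at day 8. Ppara and Ppard, the fatty acid receptors related to Pparg, moved by no more than 0.22 on any day. The 3 probes of Ppara differed, with changes from -0.10 to 0.70 at day 8.

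Retinoic acid receptors bind all-trans retinoic acid, and retinoid X receptors are the shared dimer partners of Pparg, the liver X, thyroid hormone and vitamin D receptors. None of these 6 genes changed 2-fold against the control. The change at day 8 was -0.30 ± 0.14 for Rara, -0.66 ± 0.17 for Rarb and -0.09 ± 0.20 for Rarg. Rarb went from -0.20 at day 4 to -0.43 at day 6, and both of its detected probes were lowest at day 8. Rxrb read 2101 in the control and 2478, 2420 and 2339 on days 4, 6 and 8, a difference of at most 0.24 ± 0.20. Rxra gave 31.9, 36.1, 28.4 and 27.2 on one probe and 17.7, 20.0, 23.7 and 25.9 on the other. The probes of Rxra thus moved in opposite directions at day 8, by -0.23 ± 0.21 and 0.55 ± 0.21, and the sign of its mean of 0.16 changed with the scaling, to -0.11 with the array median.

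Rxrg, the retinoid X receptor of muscle and brain, depended on the probe read. A dim probe gave 5.18 in the control and 3.22, 10.4 and 18.3 on days 4, 6 and 8, a change of 1.82 ± 0.26 at day 8. A bright probe of the same transcript, which starts at 169569496 of chromosome 1 in mm9 against 169569624 for the dim probe, gave 590.1, 474, 450 and 467.6, a change of -0.34 ± 0.20. All 8 signals were well above background. The gene mean of 0.74 stands for neither probe.

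The thyroid hormone receptors differed from each other. Thrb, the receptor beta, gave 25.9 in the control and 60.9, 100 and 125 on days 4, 6 and 8 on one probe (chromosome 14 of mm9, 18868800 to 18868859). The other probe read 7.56, 18.7, 37.3 and 45.9. Both probes were in the order of the days with no step down, and all 3 OSKM-CMP arrays lay above the control. The gene was 1.27 ± 0.16, 2.13 ± 0.16 and 2.44 ± 0.16 higher on the 3 days, or 5.41-fold at day 8. With normexp and quantile normalization it was 1.5 higher at day 8. Thra, the receptor alpha, gave 1245, 861.5, 1110 and 982.6 on one probe and 48.4, 76.1, 78.5 and 74.9 on the other. These probes moved by -0.34 and 0.63 at day 8, and their mean was 0.14 ± 0.14.

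Nr1d1 and Nr1d2 (Rev-erb alpha and beta) repress clock genes through the element that Rora and Rorb activate. Nr1d1 read 207 in the control and 49.7, 109 and 75.1 on days 4, 6 and 8. All OSKM-CMP arrays lay below the control, with day 4 the lowest and day 6 the highest of the 3. The change was -2.06 ± 0.21, -0.93 ± 0.20 and -1.46 ± 0.20 on days 4, 6 and 8. Nr1d2 changed by -0.78 ± 0.14, -0.56 ± 0.14 and -0.40 ± 0.14, and both of its probes were lowest at day 4. The position in the array file for one of these probes lies on chromosome 19 and not on chromosome 14, where the other lies.

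Rora, an activator of the same element, read 264.6 in the control and 68.7, 102 and 118 on days 4, 6 and 8 on its brighter probe. On that probe the change was -1.95 ± 0.20, then -1.37 ± 0.20 and -1.16 ± 0.20. A dim probe, named by another transcript, read 4.85 on the control array and was not well above background at day 4 or day 6. With both probes the change was -1.69 ± 0.29, -1.16 ± 0.24 and -0.84 ± 0.20, so that whether Rora was 2-fold lower at day 8 rested on the dim probe. Rorb, a relative known from brain, retina and bone, read 4.76, 22.5, 17.4 and 19.1 on one probe and 4.12, 27.3, 26.9 and 29.6 on the other. It was 2.49 ± 0.20 higher at day 4 and 2.43 ± 0.20 at day 8, and the 3 OSKM-CMP arrays differed by no more than 0.20. Its control signals were well above background but dim, where the lowest such signal on that array was 2.47. With normexp background correction and quantile normalization the change of Rorb at day 8 was 0.99. Rora and Rorb thus moved in opposite directions at day 4.

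**Figure D3:**
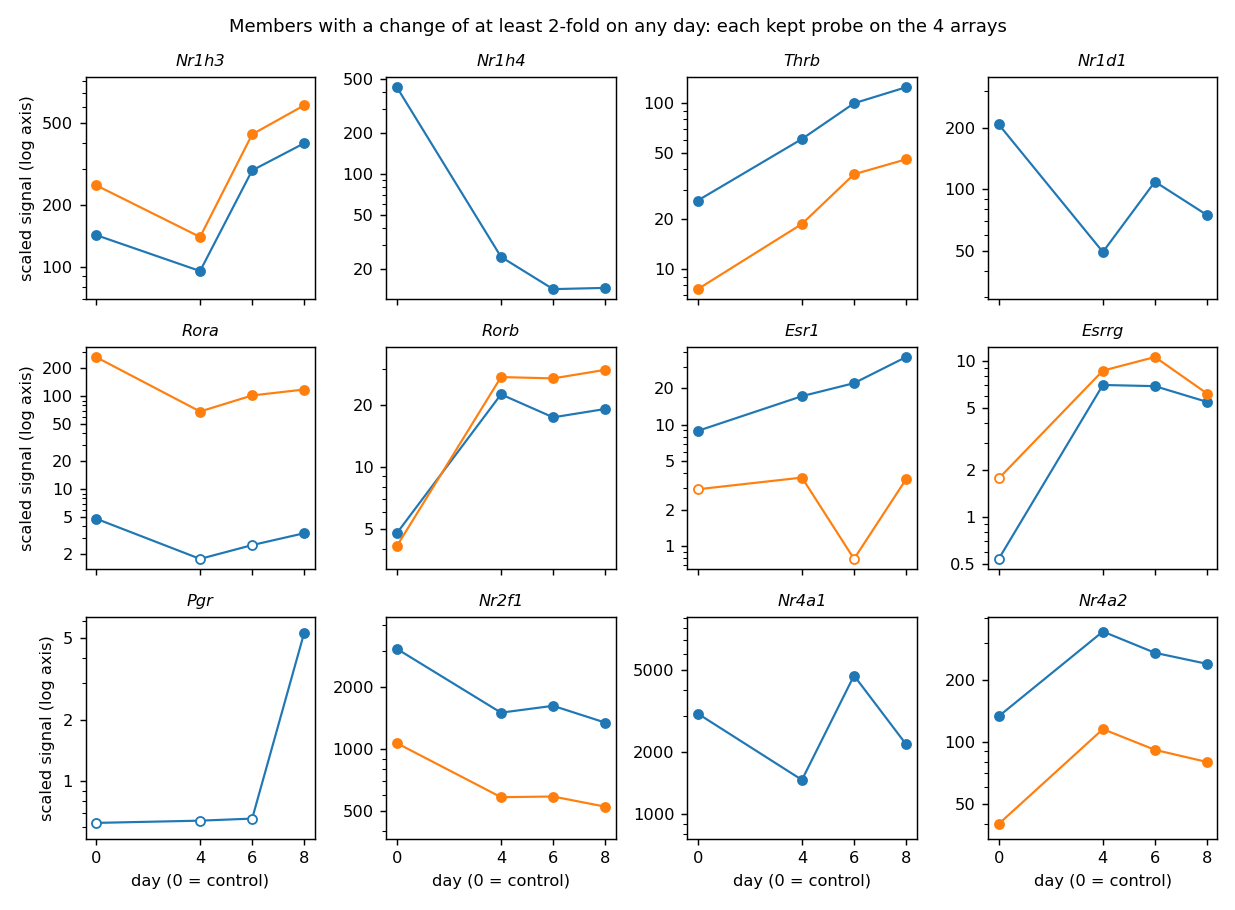
Scaled signal (log axis, percent of the array's 75th percentile) of the 12 members that changed at least 2-fold on any day, on the control (0), day 4, day 6 and day 8 arrays. Each line is 1 probe and each point 1 array. Open points were not well above background. Thrb climbs on both probes, Nr1h4 drops by day 4 and stays low, and Nr1h3 dips at day 4 before it rises.

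Among the steroid and estrogen-related receptors, the glucocorticoid receptor Nr3c1 gave 2904 in the control and 2929, 3533 and 4334 on days 4, 6 and 8 on one probe and 97.5, 85.2, 105 and 146 on the other. Day 8 was the highest array on both, and each was 0.58 ± 0.20 above the control there. Nr3c2, the mineralocorticoid receptor, gave 4.71, 4.66, 3.66 and 4.93, near the limit of detection, and was 0.07 ± 0.37 higher at day 8.

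Esr1, the estrogen receptor alpha, was carried by a probe printed on 10 spots, which read 8.91 in the control and 17.2, 22.0 and 36.1 on days 4, 6 and 8. The order was that of the days, and the changes were 0.95 ± 0.08, 1.30 ± 0.07 and 2.02 ± 0.07. The other detected probe of Esr1 was not well above background on the control or at day 6. The mean of both, used in the counts, was 0.63 ± 0.22, -0.30 ± 0.62 and 1.15 ± 0.22, so the count of Esr1 at day 8 alone and its sign at day 6 came from the dim probe. That mean was under 2-fold at day 8 with the array median as the scale (0.88) and with quantile normalization, alone (0.91) or after normexp (0.51). Esr2, the receptor beta, stayed within 0.31 of the control. Pgr, the progesterone receptor, is a known target of Esr1. Of its 3 probes 1 was well above background, and that at day 8 alone, with 5.29 against 0.629 on the control array, 0.645 at day 4 and 0.66 at day 6. Against the lowest control signal well above background it was at least 2.14-fold higher.

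Esrrg, the estrogen-related receptor gamma of oxidative tissues, was not detected on the control array. One probe read 0.541 there, 7.02, 6.9 and 5.47 on days 4, 6 and 8. The other read 1.77, 8.67, 10.6 and 6.19. The control was the dim array on both probes, and the means of both probes differed by no more than 0.56 (log2) among the 3 OSKM-CMP arrays. Esrrg was at least 3.16-fold higher at day 4, 3.46-fold at day 6 and 2.35-fold at day 8. With normexp and quantile normalization the change at day 8 was 0.37 for Esrrg and 0.52 for Pgr, under 2-fold for each. Esrra, the estrogen-related receptor alpha, read 1020, 1340, 1477 and 1465 and was 0.52 ± 0.20 higher at day 8.

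**Figure D4:**
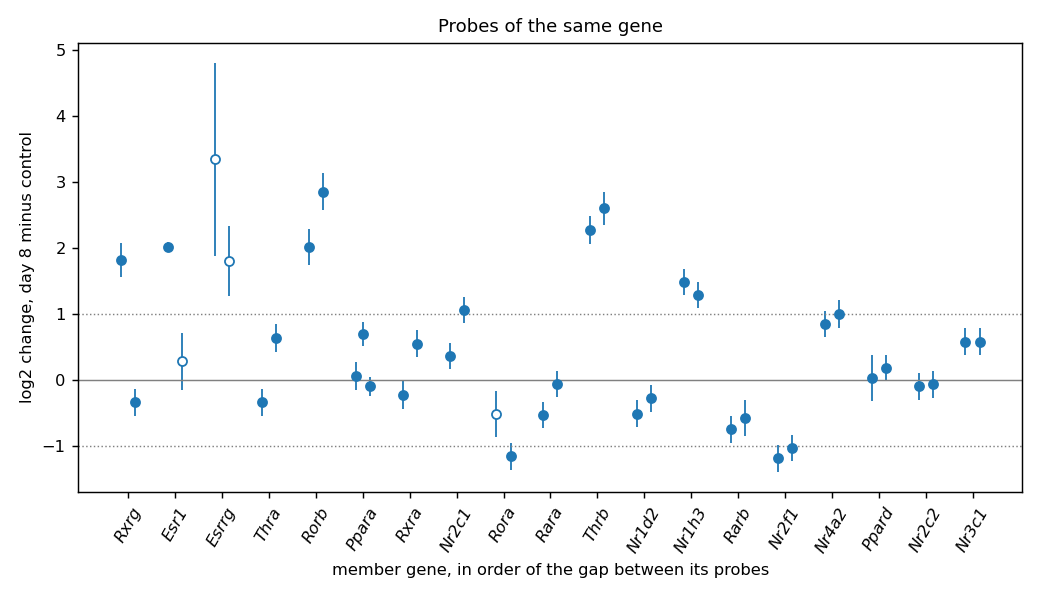
Log2 change between the control and day 8 arrays for each detected probe of the 19 members with several such probes, in order of the gap between the probes of a gene. Bars are the software's error estimates for each spot, combined over the spots of a probe and both arrays. Open points are probes not well above background on all 4 arrays. The gap exceeds 1 for Rxrg, Esr1 and Esrrg, and its median over the 19 is 0.47.

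The COUP-TF receptors Nr2f1 and Nr2f2, orphan receptors of organ and vessel formation, differed in the sign of their change. Nr2f1 read 3074 in the control and 1505, 1625 and 1347 on days 4, 6 and 8 on one probe and 1070, 584.6, 589 and 525.8 on the other. The control was the highest array on both, and the gene changed by -0.95 ± 0.14, -0.89 ± 0.14 and -1.11 ± 0.14. The change at day 8 was just past 2-fold and was under it with quantile normalization, at -0.93. Nr2f2 read 455.9, 532, 797 and 838 and was 0.88 ± 0.20 higher at day 8. Nr2f6, a further member of this branch, was 0.89 ± 0.20 lower at day 8 and by nearly as much at day 4. Of the testicular receptors, Nr2c1 was 0.71 ± 0.14 higher at day 8, with 0.36 on one probe and 1.06 on the other, while Nr2c2 stayed within 0.08 of the control on all 3 days.

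Nr4a1 and Nr4a2 are immediate-early orphan receptors, induced within a short time by growth factors, stress and calcium. Nr4a1 (Nur77) read 3080 in the control and 1467, 4713 and 2185 on days 4, 6 and 8. It was lowest at day 4 and highest at day 6, with changes of -1.07 ± 0.20, 0.61 ± 0.20 and -0.50 ± 0.20. Nr4a2 (Nurr1) read 133, 343, 270 and 239 on one probe and 39.8, 115, 91.2 and 79.6 on the other. Day 4 was the highest array on both probes, and the control the lowest. The gene was 1.45 ± 0.14, 1.11 ± 0.14 and 0.92 ± 0.14 higher on the 3 days. Nr6a1, the germ cell nuclear factor that represses Oct4 in the embryo, stayed within 0.56 of the control, with signals from 4.43 to 6.66.

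Fewer members changed between the days of OSKM-CMPs than against the control. Between day 4 and day 6, Nr1h3, Nr1d1 and Nr4a1 were at least 2-fold higher (3 of 33 members, against 2.57% of all genes) and none was lower (against 2.37%). Between day 6 and day 8, Esr1 and Pgr were higher (2 of 34, against 2.29%) and Nr4a1 was lower (against 0.732%). Between day 4 and day 8, Nr1h3, Rxrg, Thrb and Pgr were higher (4 of 34, against 4.83%) and none was lower (against 3.9%). Between day 6 and day 8 Esr1 rose by 2.18 ± 1.22 on its dim probe and by 0.71 ± 0.07 on the other, and between day 4 and day 8 Rxrg moved by 2.51 ± 0.32 on its dim probe and -0.02 ± 0.20 on the bright one.

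Several members are neighbours in the genome. On chromosome 11 of mm9 lie the probes of Thra, Nr1d1 and Rara, and on chromosome 14 those of Rarb and Thrb and 1 of the 2 of Nr1d2. In GRCm38 the annotated spans of Thra and Nr1d1 overlap by 1075 bases on opposite strands. At day 8 the change was 0.14, -1.46 and -0.30 for the first 3 genes in that order and -0.66, 2.44 and, on the probe on chromosome 14, -0.51 for the others, so neither cluster moved as a block.

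Pparg, outside the 39, gives a reference. It read 198 in the control and 2470, 2853 and 2821 on days 4, 6 and 8, and was 3.84 ± 0.06 higher at day 8. Among members detected on both arrays, the largest rises at day 8 were 2.44 ± 0.16 for Thrb and 2.43 ± 0.20 for Rorb. The control signal of Rorb was dim.

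The counts of related genes that follow stand beside 14.3% of all genes higher and 11.7% lower at day 8. These lists were chosen with earlier results of these data known, so their shares are a description and not independent support. The cofactors of nuclear receptors changed little as a list. Of 20 coactivators and corepressors compared, 2 were higher and none lower at day 8, and the median change was 0.29. Those 2, Ppargc1a and Ppargc1b, coactivators that drive mitochondrial genes, were not detected on the control array, and they are named here after their values were seen. Ppargc1a read 0.59, 11.4, 22.4 and 18.5 and was at least 7.48-fold higher at day 8. The corepressor Ncor1 differed from the control by 0.45 ± 0.10 at day 8.

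The retinoid list held genes that make, bind or break down retinoids, and also Rarres1, Rarres2 and Tgm2, which do none of these. Of its 15 genes compared at day 8, 8 were higher, with Rarres1, Rarres2 and Tgm2 among them, and 4 lower. The median change was 1.07. The aldehyde dehydrogenases that make retinoic acid from retinal were lower at day 8, with changes of -4.59 ± 0.21 for Aldh1a3, -2.71 ± 0.20 for Aldh1a2 and -2.70 ± 0.20 for Aldh1a1. Of other enzymes, Cyp26b1, which breaks retinoic acid down, changed by -1.50 ± 0.20, and Rdh10, a retinol dehydrogenase, was 1.07 ± 0.21 higher. Dhrs9, of a related family, was undetected in the control and at least 16.9-fold higher. Dhrs3 was 1.63 ± 0.20 higher, and Rdh11 changed by -0.85 ± 0.20. Cyp26b1, Rdh10, Dhrs9, Dhrs3 and Rdh11 are named after their values were seen. Crabp2, which carries retinoic acid to its receptors in the nucleus, was 3.44 ± 0.20 higher, Rarres2, the chemokine chemerin, 3.28 ± 0.20, and the transglutaminase Tgm2 2.86 ± 0.14. Rbp4, the retinol carrier of plasma that fat cells also release, is named after its value was seen. It read 3.08 in the control, not well above background. At day 8 it was 9.43 ± 0.36 above that signal, or 691.9-fold, a value that is not a lower bound.

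The glucocorticoid list held falls and rises. Of 14 genes, 5 were higher and 4 lower at day 8, with a median of 0.23. Hsd11b1, the enzyme that regenerates active glucocorticoid, read 6249 in the control and 315.5, 299 and 375 on days 4, 6 and 8, a change of -4.06 ± 0.07 at day 8. Dusp1, a phosphatase of MAP kinases, changed by -3.04 ± 0.20 and Cebpd, an early factor of fat cell formation, by -2.94 ± 0.20. Pdk4, a kinase that limits glucose oxidation, was 2.55 ± 0.20 higher, the metallothionein Mt2 2.25 ± 0.20 and Zbtb16 2.14 ± 0.24. Fkbp5 and Tsc22d3, widely used readouts of the receptor, were -0.59 and 0.31.

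Target genes of the liver X receptors were higher in larger numbers at day 8 than before. Of 11 liver X receptor targets, 2, 5 and 7 were higher on the 3 days in turn, and 1 was lower on each. Scd1 and Fasn, enzymes of fatty acid synthesis, were -0.49 and -0.27 at day 4 and 2.92 ± 0.20 and 2.29 ± 0.20 higher at day 8, and Pltp, a phospholipid transfer protein, was 2.30 ± 0.20 higher. Abcg1, a sterol efflux pump, went the other way, with 159 in the control and 16.8, 14.3 and 29.5 on days 4, 6 and 8, a change of -2.43 ± 0.21. Abca1, another target of this list, was 1.19 ± 0.20 higher at day 8 and is named after its value was seen. Of 11 targets of Ppara and Ppard, 7, 8 and 7 were higher on the 3 days (11.8%, 12.7% and 14.3% of all genes) and none was lower. Vnn1, a pantetheinase, was 4.21 ± 0.21 higher at day 8, and Angptl4, an inhibitor of lipoprotein lipase, 2.07 ± 0.20. Pparg shares many of these targets, and its part in them was not tested.

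Among 14 clock genes, 1 was higher and 2 lower at day 8, and the median was 0.04. Bhlhe40, a repressor of the clock, changed by -2.64 ± 0.20 and Ciart by -1.61 ± 0.35, while Hlf was 1.19 ± 0.23 higher. Arntl and Clock, the activators of Nr1d1, were -0.57 and -0.60 at day 4 and -0.40 and 0.08 at day 8. The hour at which each culture was lysed is not given in the sources used here.

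In the thyroid hormone list, 5 of 11 genes were higher and none lower at day 8. Crym, which binds thyroid hormone in the cytosol, was 3.15 ± 0.22 higher, Dio2, the deiodinase that activates the hormone, 2.24 ± 0.21, and the corepressor Hr 2.01 ± 0.20. Thrsp, a lipogenic target of the hormone, is named after its value was seen and was at least 1066-fold higher at day 8, being undetected on the control array. Of 5 genes of the vitamin D and bile acid pathways, 1 was higher and 1 lower at day 8, the latter the bile acid receptor of the membrane, Gpbar1, at -1.71 ± 0.21.

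**Figure D5:**
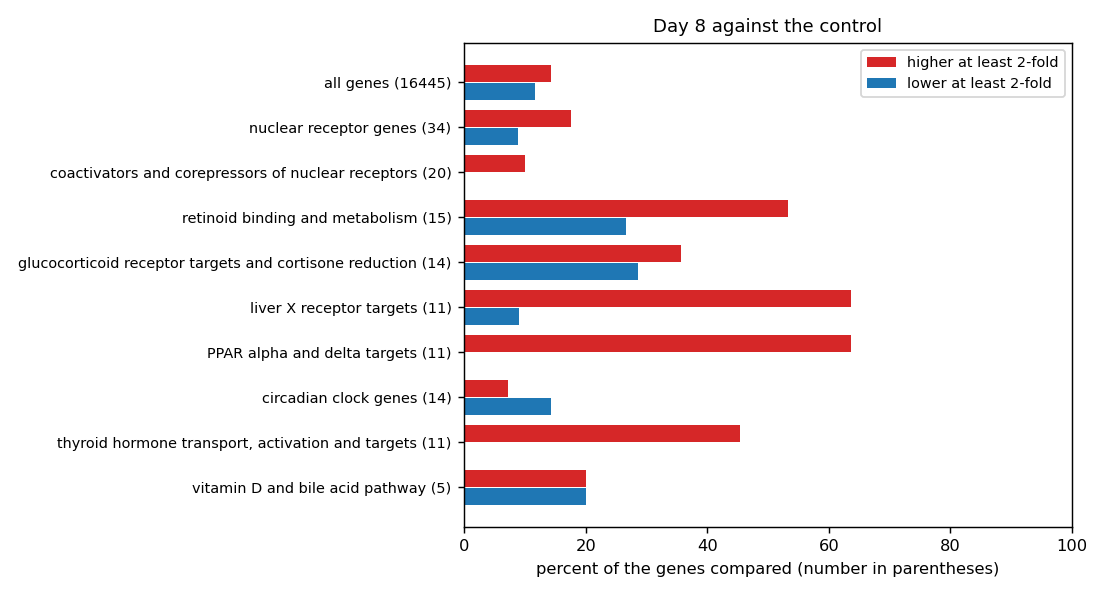
Percent of genes at least 2-fold higher (red) or lower (blue) at day 8 against the control, for all genes, the nuclear receptor genes and each related list, with the number of genes compared in parentheses. The receptors lie close to all genes. In the retinoid list 8 of 15 genes were higher and 4 lower. In each list of liver X receptor and Ppara and Ppard targets 7 of 11 were higher, with 1 and none lower. The lists were chosen with earlier results of these data known, so their distance from all genes is a description only.

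Markers of cell types were read on the same arrays. All 10 mesenchymal progenitor markers, among them Ly6a, which encodes Sca-1, were detected on every array. At day 8, 1 of them was higher (Ly6a, by 2.69 ± 0.20) and 3 were lower (Thy1, Eng and Itgb1). Their summed scaled signal went from 168892 on the control array to 136308 at day 8. The summed signal of 8 adipocyte markers went from 615.7 on the control array to 2319, 15302 and 36631 on days 4, 6 and 8. Adipoq and Plin1, which define fat cells, were not detected on the control array. For 6 endothelial markers the sum was 191 on the control array and between 112 and 123 on the others. At day 8, 3 of the 6 were lower (Cdh5, Emcn and Tek, the first 2 undetected there), and Pecam1, Kdr and Vwf differed by 0.10, -0.27 and 0.78. For 7 macrophage and leukocyte markers it went from 227 to 187 at day 8. The cardiomyocyte markers gave 1205 and 435.9, most of it Tnnt2. Of 6 compared at day 8, Tnnt2 was lower and 3 were higher (Myl2 by 1.65 ± 0.27, and Tnni3 and Myh6, which were undetected in the control). The part of any of these cell types in the receptor values was not tested.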

How the data were processed

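RNA of 4 CMP cultures was labelled with Cy3 and hybridised to SurePrint G3 Mouse GE arrays, which shared 1 slide and 1 scan. The authors deposited Feature Extraction files (version 10.7.3.1 in the file headers, 9.5.3 in the submitters' processing notes) with a background-subtracted intensity per spot, and log2 values normalized in GeneSpring. The latter equal the values used here up to a constant per array, with a largest spread of 3.7e-06. Probe positions in the files are on mm9.

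Control and outlier spots were left out. The log2 of the processed intensity was averaged per probe and the array's 75th percentile subtracted. An array detected (called well above background) between 56.6% and 59.6% of 55681 probes, and no spot was saturated. Probes detected on any array were kept (54 of the members' 66), and a gene took their mean. A gene was compared where at least 1 of its probes was well above background on either array. For a gene undetected on one of the arrays, a bound was set against the higher of its own signal and the lowest signal well above background there, averaged over its kept probes. Where its own signal was the higher, as for Rbp4, the value is an estimate and not a bound. Names were matched to RefSeq of GRCm38.p6 (19796 by symbol, 2101 by accession, 395 by synonym), and 12552 array names were not. The members and lists were chosen with earlier results of these data known. Members changed at least 2-fold on any day, the retinoid X receptors, Thra, Nr3c1 and Nr1h3 were given on all 4 arrays, and up to 3 of the largest rises and falls at day 8 in each list, among genes detected on both arrays. The pipeline was tested on simulated data. Alternatives were normexp (offset 50) with quantile normalization, quantile normalization, the array median, the authors' values, other filters, a floor, the brightest probe, and 1.5- and 3-fold. Python 3.11.15, numpy 2.4.6, pandas 2.3.3, matplotlib 3.10.9, R 4.3.3 and limma 3.58.1 were used.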

Additional observations from a re-analysis of the deposited data

How the results depend on the processing

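No paired analysis was possible because every group is a single array. Of 66 counts of changed members under the alternatives, 51 were within 1.5 times the count reported, and of 27 median changes, 26 moved by less than the error. With normexp and quantile normalization, 2 members were higher and 2 lower at day 4, 1 and 1 at day 6, and 2 were higher at day 8. Of all genes, 5.34% were then higher and 4.91% lower at day 4, 6.22% and 5.98% at day 6, and 6.58% higher at day 8. With the array median as the scale, 4 members were lower at day 6 (against 13.9% of all genes) and 5 at day 8 (against 17%). The median change of the members at day 8 was then -0.08, where that of all genes was -0.30. At 1.5-fold, 8 members were lower at day 4 (against 18.4% of all genes). At this fold 8 were higher and 5 lower at day 6 (against 20.2% and 20.9%). At day 8 the counts were 12 higher and 6 lower (against 22.5% and 21.3%). At 3-fold, 2 were higher at day 4 (against 7.25% of all genes), 1 was lower at day 6 (against 6.12%) and 1 at day 8 (against 6.52%). For 17 members named in full, 101 of 149 values at day 8 moved by less than the error, 43 moved by more and 5 changed sign. The latter were Rxra with normexp and quantile normalization (-0.03), with the latter alone (-0.04), with the array median (-0.11) and its brightest probe (-0.23), and Rxrg with its brightest probe (-0.34). The use of probes detected on both arrays compared, an alternative chosen after seeing the data, gave 2.02 for Esr1 at day 8. The cause was not tested, other than that 3-fold and 1.5-fold counts differ by construction. The authors' values equal those used here up to a constant per array, so agreement under that alternative was largely fixed in advance. Its results are included in the 66 counts, 27 medians and 149 values above. Signals near the background limit what can be said of Esrrg, Pgr, Nr3c2 and Nr6a1, and of Rorb through its control signal of 4.43.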
